A study of Drosophila melanogaster with 3 samples.

Results

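Brain-specific homeobox (Bsh) is a homeodomain transcription factor of the lamina, the outermost neuropil of the fly optic lobe. Its binding was profiled by Targeted DamID, in which a factor is fused to the bacterial DNA adenine methylase Dam, so that GATC sites near its binding positions become methylated and can be recovered and sequenced. The members described here are the broad Bsh:Dam peaks. They were chosen from the replicate 1 peak list as peaks of at least 3000 bp with a score below 4.0 that overlap, by 1 bp or more, a peak of both replicate 2 and replicate 3. Of 2834 replicate 1 peaks, 257 (9.07%) met this rule. Length and score in replicate 1 chose the members and are given as a description only.

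All samples belong to 1 group of 3 biological replicates, Lamina neuron 4 (L4) of Drosophila melanogaster carrying Bsh:Dam, taken over the window of synapse formation (46–76 hr APF, hours after pupa formation). The fusion was driven by R31C06-Gal4 under temperature-sensitive Gal80, in flies that also carried UAS-myristoylated-tdTomato, and laminae of many pupae were pooled for a sample. Peaks were called by the authors for each replicate from Bsh:Dam signal set against Dam alone, as a log2 ratio, and a peak score is the value of their caller. There is no second condition, so values were compared between replicates and between broad and shorter peaks, without a test. The peak lists hold no reads, so the depth behind each peak is unknown here, and whether the replicates shared a Dam profile is not given in the sources used here.

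L4 neurons are second-order visual neurons that receive photoreceptor information through other lamina cells and join neighbouring columns of the lamina. Apterous (Ap), a LIM homeodomain factor, is a further transcription factor of L4. A Dam peak is drawn between GATC sites. Its length is therefore set by the spacing of these sites as well as by the extent of methylation, and a broad peak may hold several binding positions. A peak is a record of proximity to DNA and says nothing of whether the gene beside it is transcribed.

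The broad peaks ranged from 3004 to 7178 bp, with a median of 3635 bp. Of these, 168 were shorter than 4000 bp, 63 were from 4000 to under 5000 bp, 17 from 5000 to under 6000 bp, and 9 were of 6000 bp or more. Together they covered 1003470 bp, or 19.6% of all bases under replicate 1 peaks. They lay on every large chromosome arm, with 39 on 2L, 53 on 2R, 48 on 3L, 70 on 3R and 47 on X. Their share of the replicate 1 peaks was between 8.33% on 2L and 9.59% on 3R. Chromosome 4, which held 18 replicate 1 peaks, had 0 members.

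The limits of the rule cut through a continuous range. The shortest members lay in unc-5, a netrin receptor gene (3004 bp), shep, a gene for an RNA-binding protein (3008 bp), and RapGAP1 (3014 bp). The shared peaks just below the limit, at Lrch (2997 bp), nAChRalpha6 (2995 bp) and exu with galla-1 (2994 bp), were nearly as long. By score, alpha-Man-IIb (3.94), cpx (3.91) and ush (3.81) were just inside the limit. The peaks at CG17816 and lobo (both 4.04) and elav (4.06) were just outside it. Of 321 replicate 1 peaks of 3000 bp or more, 9 scored 4 or higher. A further 55 scored below 4 but missed a peak in at least one other replicate, of which 40 were absent from replicate 3 only, 7 from replicate 2 only and 8 from both. The median score of these 55 was 2.26 in replicate 1.

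**Figure D1:**
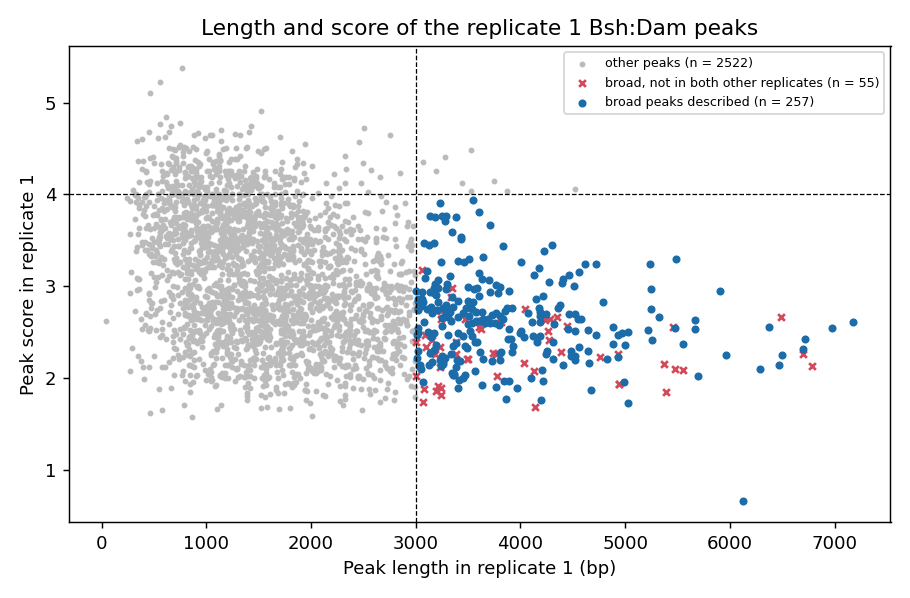
Peak length (x axis, bp) against peak score (y axis) for each replicate 1 peak, with dashed lines at 3000 bp and a score of 4. The 257 broad peaks described here lie to the right of 3000 bp and below 4, and the lowest point of the plot is the CG42238 peak with 0.67.

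Broad peaks scored lower than shorter ones in each replicate. The median score of the broad peaks was 2.62, 2.82 and 2.43 in replicates 1, 2 and 3. For the 1805 shared peaks under 3000 bp and with a score below 4, it was 3.06, 3.11 and 2.86. Averaged over peaks, the broad peaks scored 2.66 ± 0.177 (SD, n = 3) and the shorter peaks 3.03 ± 0.107 (SD, n = 3). The score limit of the rule holds for both sets in replicate 1. The rule did not use length in replicates 2 and 3, but the sets still differed in length there. A peak of 3000 bp or more lay over 197 and 179 of the broad peaks, and over 53 and 60 of the shorter ones. The scores of those replicates are thus not independent of length. Over all peaks of a list, length and score had a Spearman's rho of -0.37, -0.42 and -0.39 in replicates 1, 2 and 3 (2834, 2838 and 2891 peaks). Peaks of one list share a library and a caller, and no p-value is given.

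For its gene analysis the study kept scores above 2.5. Such scores were found for 154, 187 and 111 of the broad peaks in replicates 1, 2 and 3. In all 3 replicates this held for 102 (39.7%), against 70.4% of all 2368 shared replicate 1 peaks. In 69 of the 257 broad peaks no replicate exceeded 2.5, and in 210 of the 1805 shorter peaks. Within a peak the 3 scores had a median SD of 0.204, against 0.170 for the shorter peaks. Replicate 2 scored above replicate 1 at 228 of the broad peaks (88.7%) and at 60.0% of the shorter ones. Replicate 1 length chose the broad peaks and ran against score, so a comparison with replicate 1 is not free of that choice. Replicate 3 was below replicate 1 at 194 (75.5%), against 74.1% of the shorter peaks. It was the lowest of the 3 at 191 broad peaks and at 1214 of the 1805 shorter ones.

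Other replicates almost always drew a broad peak as a single peak. Each of 253 members met exactly 1 peak in replicate 2 and exactly 1 in replicate 3. Only 1 was split into 2 peaks in replicate 2 and 3 in replicate 3. Among all shared replicate 1 peaks 0.169% were split in replicate 2 and 0.253% in replicate 3, and 0.38% in either. Of the broad peaks 1.56% were split in either, 4 of the 9 split peaks in the list. A longer peak offers more room for a gap, so the share was not tested against that of the shorter peaks.

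The 4 split peaks were as follows. On 3L at 2411327–2416574, inside Svil, which encodes supervillin, an actin-binding protein, replicate 3 had pieces of 3418 and 1532 bp with a gap of 298 bp. Their scores were 2.64 and 2.71, and the whole peak had 2.75 in replicate 1 and a narrower peak 2.95 in replicate 2. On X at 7304623–7309267, over CG1677 and over brk, the gene of the Dpp target repressor Brinker, replicate 2 had pieces of 3014 and 1169 bp (scores 2.8 and 2.67) with a gap of 127 bp. Replicate 3 kept only the larger piece there. On 3L at 15687390–15691629, over CG34451 and CG34452 and within 1 kb of Pgant8, replicate 3 had pieces of 1508 and 1616 bp (2.48 and 1.84) with a gap of 353 bp, and the second ran past the end of the replicate 1 peak. The widest gap, 853 bp, lay in CG43347 on X at 10613803–10616883, where replicate 3 had pieces of 1392 and 836 bp (3.27 and 3.45). In 3 of the 4 the gap was thus under 500 bp.

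**Figure D2:**
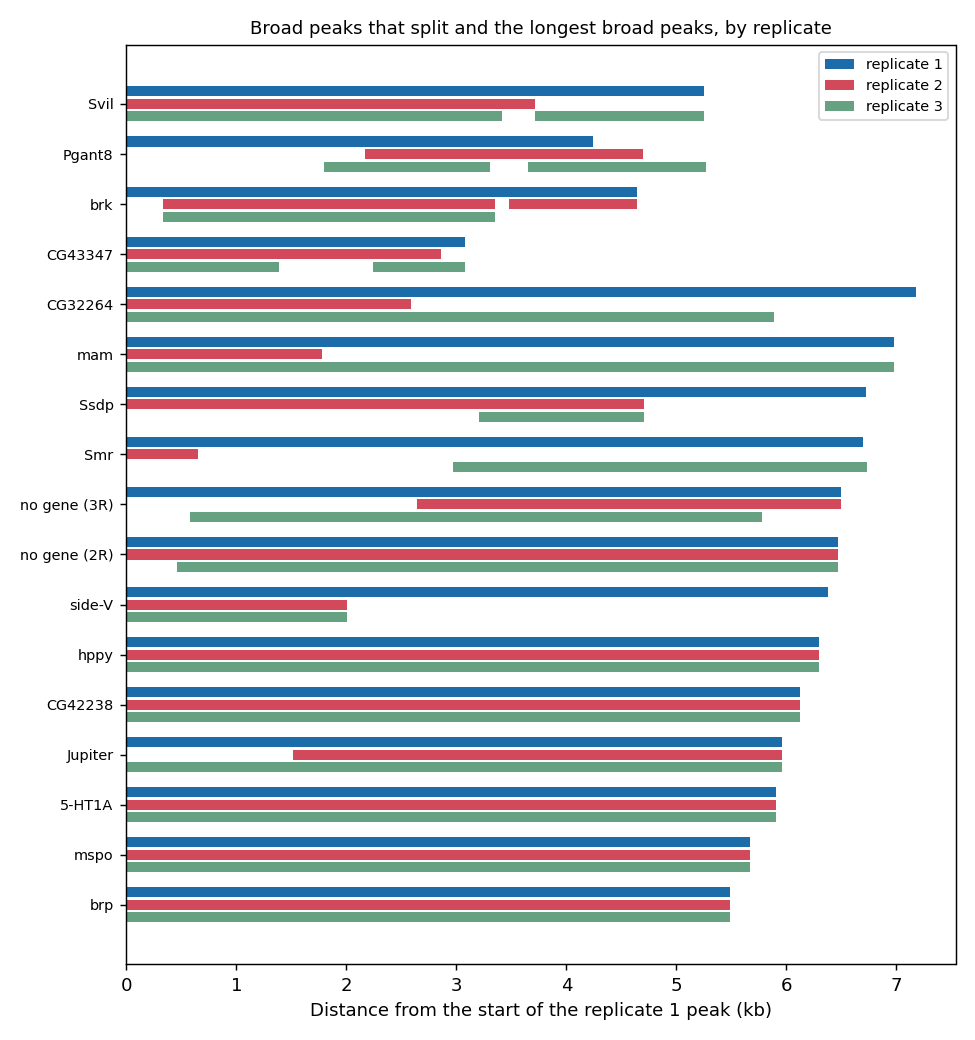
Extent of the peaks of replicates 1, 2 and 3 at the 4 split broad peaks (top), at the 10 longest broad peaks and at the 5 longest with the same borders in each replicate. The x axis is the distance from the start of the replicate 1 peak in kb, and a gap within a row of bars of one colour is a split, as for replicate 3 in CG43347 with 853 bp.

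Where a broad peak stayed single, the borders often moved. In replicate 2, 144 members (56.0%) had the same start and end, 81 (31.5%) were narrower, 16 (6.23%) were wider and 15 (5.84%) were shifted to one side. In replicate 3 these counts were 106 (41.2%), 86 (33.5%), 38 (14.8%) and 24 (9.34%). Both other replicates repeated the borders exactly at 82 members (31.9%), against 42.6% of all shared replicate 1 peaks. The narrower peaks had mostly lost ground on a single side, in 75 of 81 cases in replicate 2 and 70 of 86 in replicate 3. So had the shorter peaks that were drawn narrower, in 242 of 257 and 298 of 312 cases. The median loss of the broad peaks was 1084 and 1165 bp. Since the rule asked for length in replicate 1 alone, narrower peaks in the other replicates are favoured by the choice of members, and their excess over wider ones is no finding. When replicate 2 was the base, 22.6% of its 252 members were narrower in replicate 1 and 11.9% wider, and when replicate 3 was the base, 37.6% of its 242 members were narrower in replicate 1 and 11.2% wider. The excess was thus seen from each base.

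**Figure D3:**
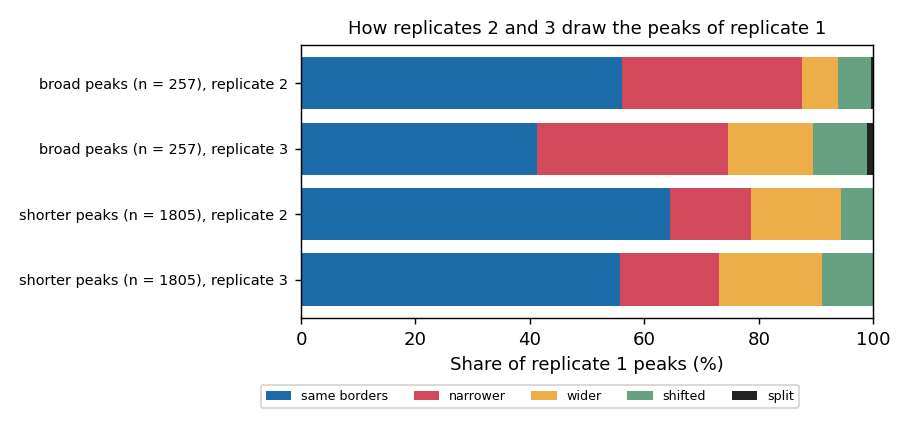
Share of replicate 1 peaks (x axis, %) that replicates 2 and 3 drew with the same borders, narrower, wider, shifted or split, for the 257 broad peaks and the 1805 shorter shared peaks with a score below 4. Same borders fell from 64.4% and 55.8% of the shorter peaks to 56.0% and 41.2% of the broad ones, in replicates 2 and 3.

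On average 88.3% of the bases of a broad peak lay under a peak in replicate 2 and 84.7% in replicate 3, and the median was 100% in both. The mean over both replicates, 86.5%, fell to 48.6% when only peaks with a score above 2.5 were counted and to 65.7% with an FDR below 0.001. All bases were covered in both other replicates at 114 members (44.4%), against 64.9% of the shorter peaks. Less than 50% was covered in replicate 2 at 18 of the 257 members and in replicate 3 at 25, and in both at 6. For the 1805 shorter peaks these counts were 59, 92 and 18. The share covered this poorly was larger for the broad peaks in each of these replicates, but the rule asked for length in replicate 1 alone. Lower coverage of longer peaks is thus favoured by the choice of members, also across length classes, and is no finding. Mean coverage was lowest in the longest class. It was 89.3% and 84.6% in replicates 2 and 3 below 4000 bp, 89.8% and 87.2% from 4000 to under 5000 bp, and 77.9% and 79.7% for the 26 peaks of 5000 bp or more. In that longest class 46.2% and 38.5% had the same borders. A peak of 3000 bp or more with a score below 4 was found over 197 members in replicate 2, over 179 in replicate 3 and over 156 (60.7%) in both.

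Peaks that another replicate drew narrower differed in score from those it drew the same. In replicate 2 the score minus that of replicate 1 had a median of 0.15 for the 144 members with the same borders and 0.26 for the 81 narrower ones. In replicate 3 it was -0.255 for the 106 with the same borders, -0.005 for the 86 narrower ones and -0.365 for the 38 wider ones. The shorter peaks showed the same order, with 0.05 and 0.23 in replicate 2 and -0.17 and 0.05 in replicate 3 for same and narrower borders. Where under 50% of a broad peak was covered, the median difference was 0.465 in replicate 2 and 0.24 in replicate 3. For shorter peaks covered this poorly it was 0.4 and 0.28, so this is not particular to broad peaks. Border and score come from the same caller and the same library, and no test was made.

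**Figure D4:**
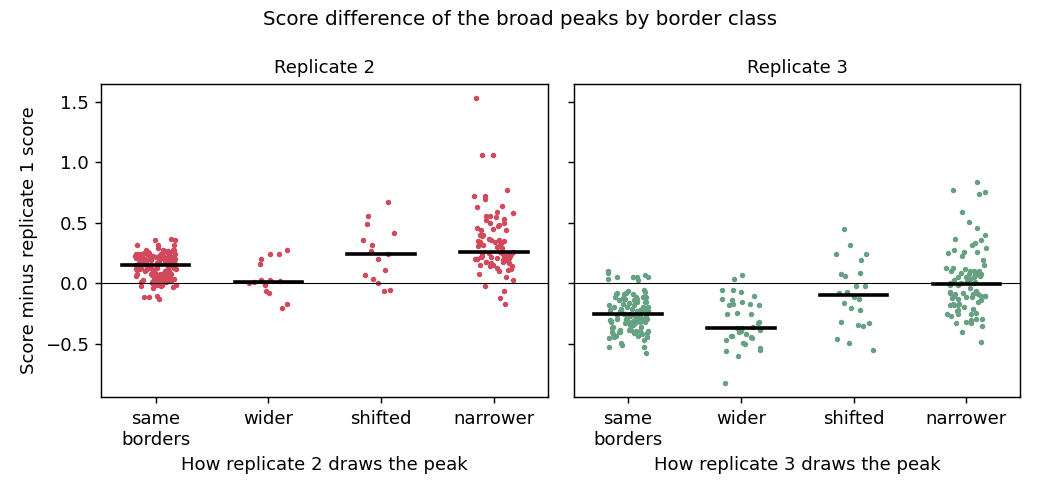
Score in replicate 2 (left) and replicate 3 (right) minus the replicate 1 score (y axis) for each broad peak, by how that replicate drew the peak (x axis), with black lines at the medians and the split peaks left out. Narrower peaks reached the highest differences, up to 1.53 in replicate 2 and 0.84 in replicate 3.

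Among the 10 longest broad peaks both outcomes occurred. The longest, on 3L at 3752297–3759474 (7178 bp), lay at CG32264 and ppk27 and scored 2.61, 3.24 and 2.4 in replicates 1, 2 and 3. Replicate 2 kept 2584 bp of it and replicate 3 kept 5886 bp. The peak in mam on 2R at 14031094–14038068 (6975 bp) scored 2.55, 3.27 and 2.32. This gene encodes Mastermind, a co-activator of Notch, and replicate 3 repeated its borders while replicate 2 held 25.6% of it. At Ssdp on 3R (6720 bp, 2.43, 2.72 and 3.2), whose product is a cofactor of Chip and LIM homeodomain proteins such as Ap, replicate 2 held 70.1% and replicate 3 22.4%.

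The peak at Smr on X, from 12715617 to 12722314, had the largest SD over replicates of all broad peaks (0.889). Smr encodes the co-repressor SMRTER. Replicate 1 had a peak of 6698 bp with a score of 2.32, whereas replicate 2 had a peak of 651 bp at one end with 3.85 and replicate 3 a peak of 3765 bp at the other end with 2.3. The replicate 2 and 3 peaks did not touch. At side-V on 2R (6377 bp), a gene of the Side family of Ig receptors, replicates 2 and 3 had the identical peak of 2005 bp at one end. It scored 3.62 and 3.4, both above the 2.56 of the whole peak in replicate 1.

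In contrast, hppy, CG42238, 5-HT1A, mspo and brp had the longest peaks with identical borders in every replicate. The hppy gene, for a kinase of the MAP4K family, had a peak of 6292 bp with scores of 2.1, 2.36 and 2.15. That of 5-HT1A, a serotonin receptor gene, measured 5908 bp and scored 2.95, 3.15 and 2.53. The mspo peak (5672 bp) scored 2.63, 2.89 and 2.52. In brp, which encodes the active zone scaffold Bruchpilot, the peak of 5483 bp on 2R at 9511210–9516692 scored 3.3, 3.58 and 2.97. Replicate 2 gave the highest score at each of these but CG42238.

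The CG42238 peak stood apart. It lies inside the gene on 2L from 20976255 to 20982380 (6126 bp), and its scores of 0.67, 0.66 and 0.56 were the lowest of the whole list in each replicate. The next lowest in those lists were 1.58, 1.68 and 1.34. The next lowest score of a broad peak in replicate 1 was 1.73, in Fili, a gene for a leucine-rich repeat protein. The borders in CG42238 were the same in all 3 replicates. In replicate 1, 97 peaks had its FDR of 0.000718.

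The highest mean scores were those of CG42258 (3.77, 3.97 and 4.13 in replicates 1, 2 and 3), jus (3.75, 4.42 and 3.68), alpha-Man-IIb (3.94, 4.09 and 3.61), CG42784 with CG46308 (3.67, 4.03 and 3.93) and futsch (3.77, 4.02 and 3.8). Mutants of jus are known for seizures, and futsch encodes a microtubule-associated protein of axons and synapses. These peaks were near the short end of the range, between 3188 and 3712 bp, and 3 of them were narrower in replicate 2. Both CG42784 and alpha-Man-IIb were narrower with the same borders in replicates 2 and 3, at 1623 and 2854 bp.

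At the other end, after CG42238, were Fili (1.73, 1.86 and 1.85), Mmp2, a matrix metalloproteinase gene (1.87, 1.9 and 1.73), FMRFaR, a neuropeptide receptor gene (1.76, 2.12 and 1.74), and Oct-TyrR, an octopamine and tyramine receptor gene (1.97, 1.96 and 1.89). No replicate passed 2.5 at any of these peaks, which does not hold for every peak of the genes. The other broad peak of Fili scored 3.07, 3.02 and 3.03, and that of Mmp2 2.08, 2.31 and 1.95. The FMRFaR peak was wider elsewhere, since replicates 2 and 3 both had a peak of 6182 bp that began at a lower coordinate and ended short of the replicate 1 end. Large gains were also seen at Tl, where replicate 3 had 6481 bp against 3021 bp, and at CG34384, where replicate 2 had 7598 bp against 3630 bp.

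Gene positions were taken from RefSeq (Release 6), while the peak files name no build. Of the 238 broad peaks with a gene within 1 kb, 237 had such a gene in the authors' replicate 1 gene list at the score of that very peak. A gene contained the whole peak, with no gene border inside it, at 153 members (59.5%). A border of a gene lay inside 81 (31.5%), and 23 (8.95%) lay over no gene. For the shorter peaks these shares were 62.0%, 26.4% and 11.5%. The scores differed little by position, with replicate 1 medians of 2.63, 2.6 and 2.7. Strand and exons were not used, so starts, ends and introns are not distinguished.

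Within 1 kb of the broad peaks lay 306 genes, of which 256 code for protein and 40 are long non-coding or antisense RNA genes. Of all 17684 annotated genes on these chromosomes, 1.73% lay within 1 kb of a broad peak. A single gene was within 1 kb of 164 members, 74 members had 2 or more, and 19 had none. The coding genes were long. Their median length was 25092 bp, against 7748.5 bp for coding genes at the shorter peaks and 2163 bp for all coding genes, and 56.6% of them were 20 kb or longer. A long gene offers more room for any peak. Of all 1012 coding genes of that length, 14.3% had a broad peak, against 1.84% of all coding genes.

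Of the 19 peaks with no gene within 1 kb, the longest were on 3R at 15026919–15033414 (6496 bp; 2.25, 2.7 and 1.85 in replicates 1, 2 and 3) and on 2R at 17967076–17973542 (6467 bp; 2.15, 2.4 and 2.02). The highest mean score in this class was on X at 21489343–21493567, with 3.38, 3.36 and 3.45. On 3R at 28644431–28647933 the scores were 2.99, 3.34 and 3.74, and replicate 3 was thus higher there than on X.

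Some genes held several broad peaks. Of the 306 genes, 29 had 2 or more within 1 kb, and 4 had 3 or more. Some of the 29 overlap and share the same peaks, as CG43739 with sky and Hr3 with CG12912, so they are not all separate loci. Svil had 4, of 5248, 4520, 3730 and 3179 bp, among its 7 replicate 1 peaks. RapGAP1, which encodes a GTPase-activating protein of Rap1, had 3 of 5. Nlg3, a neuroligin gene for a postsynaptic adhesion protein, had 3 of 6, with replicate 1 scores of 2.52, 2.46 and 2.62. Bicra had 3 of 4, with 2.6, 2.54 and 3.12. In brp, 2 of the 3 peaks were broad, and in the beat-IV and Bsg genes both of 2 peaks were. Neighbouring broad peaks of a gene need not behave alike. In Svil, the second kept its borders in every replicate, whereas the first was split in replicate 3.

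The genes at the broad peaks were matched to 8 lists of neuronal and developmental genes, which do not hold every gene of a kind. Of 646 annotated genes on these lists, 53 had a broad peak within 1 kb, and these involved 61 of the 257 peaks (23.7%). The lists hold long genes, with median lengths from 13197 to 36685 bp, so their shares should be read against the 14.3% of long coding genes as well as the 1.84% of all coding genes.

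Synapse recognition and cell adhesion genes formed the largest group, with 13 of 105 genes (12.4%) and 17 broad peaks. Members of the Beat and Side families, ligand and receptor Ig proteins that pair with each other, made up 5 of the 13. Besides side-V, the longer beat-IIb peak, of 4153 bp (2.86, 3.13 and 2.71 in replicates 1, 2 and 3) and the side-VI peak of 4127 bp (3.12, 3.31 and 2.89) scored above 2.5 in every replicate, and so did side-II (2.84, 3.02 and 2.67). The shorter beat-IIb peak (3260 bp) had 2.18, 2.35 and 2.08. At beat-IV a peak on 3R from 23578768 to 23582523 scored 2.6, 2.6 and 2.07, but replicate 2 met only its first base, which is the last base of a replicate 2 peak. The single broad peak of kirre, an Ig protein gene with 10 replicate 1 peaks, measured 4989 bp and scored only 1.96, 2.24 and 2.21. In Ten-m, a teneurin gene, the scores were 2.39, 2.48 and 2.04, and in dpr12 they were 2.6, 2.88 and 2.5. In this list 5 of the 17 peaks were above 2.5 in all replicates and 6 in none, against 102 and 69 of all 257 broad peaks.

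Synaptic vesicle and active zone genes had 6 of 47 (12.8%), with 8 peaks. Their scores were higher than in the other groups of 5 or more peaks, with a median over peaks of the mean score of 3.27, against 2.63 over all broad peaks. Of these 8 peaks, brp and futsch held 2 each, so they are not all separate genes. The list is a broad one, since futsch and bru3 encode a microtubule-associated and an RNA-binding protein. Complexin, a regulator of vesicle fusion encoded by cpx, had 3.91, 3.81 and 3.81. Rim, an active zone protein gene, had 3.59, 3.83 and 3.16, and Rbp, which encodes the RIM-binding protein, had 2.94, 3.16 and 2.68. The second brp peak (4176 bp), which also lies within 1 kb of Wnt2, had 3.2, 3.34 and 2.84. In futsch both broad peaks scored above 3 in each replicate, with 3.26, 3.38 and 3.13 for the longer one. The lowest of the group was bru3, an RNA-binding protein gene, with 2.77, 3.0 and 2.46. It was the only one of the 8 peaks not above 2.5 in all replicates.

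Transcription factor genes had 7 of 135 (5.19%), with 9 peaks, of which 7 were above 2.5 in each replicate. Nuclear receptors of the ecdysone response carried 5 of the 9. The Hr4 peaks of 4562 and 4400 bp scored 3.16, 3.12 and 3.01 and 3.04, 3.38 and 2.95 in replicates 1, 2 and 3. The Hr3 peaks scored 2.98, 2.99 and 2.89 and 2.72, 3.44 and 2.82. In contrast the single broad peak of Eip75B, a gene with 7 replicate 1 peaks, had 2.0, 2.22 and 1.78. The highest was jim, a zinc finger gene, with 3.75, 3.63 and 3.74. The jim gene was also entered, out of place, in the list of cytoskeleton and chromatin regulators. The BTB factor gene psq had the longest peak of the group, 5548 bp, with 2.37, 2.42 and 2.0. No broad peak lay within 1 kb of the lamina marker genes svp, bab2, erm, zfh1, pdm3, tll, ap and bsh, the glial gene repo or the photoreceptor genes ninaE and chp. In replicate 1, bsh had 1 peak of 1385 bp, ap had 4 of up to 2230 bp and svp had 2 of up to 1270 bp, and the others of these genes had 0. Of all annotated genes, 1.73% had a broad peak and 13.6% a shared replicate 1 peak within 1 kb, so absence at these few genes is no finding.

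Ion channel genes had 5 of 55 (9.09%). The sodium channel gene para scored highest, with 3.77, 3.81 and 3.38 and the same borders in each replicate. The Ca-alpha1D calcium channel gene (2.84, 2.89 and 2.48) and NaCP60E (2.76, 3.0 and 2.24) also kept theirs. Among the listed channel genes, the potassium channel gene Shab had the longest peak, 4522 bp, with 2.2, 2.57 and 2.02. Replicates 2 and 3 each held 75.3% of it. The list does not hold ppk27, which lies under the longest broad peak of all. At Ca-alpha1T the scores were 2.47, 2.71 and 2.75.

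The list of genes for transmitter synthesis, transporters and receptors had 8 of 109 (7.34%), all 8 of them receptor genes, and 4 of the 8 peaks kept their borders throughout. Octbeta1R, an octopamine receptor gene, scored 2.94, 3.15 and 2.7, and a peak within 1 kb of the pyrokinin receptor gene PK2-R1 3.24, 3.23 and 2.69. The gene under that peak is PK2-R2, which had 2 broad peaks. The GABA receptor gene Rdl scored 2.61, 2.83 and 2.14, and GABA-B-R1, which encodes a subunit of the metabotropic GABA receptor, 2.17, 2.34 and 1.83. Octbeta2R had a replicate 1 peak of 3239 bp that did not meet the rule. The nicotinic receptor gene nAChRalpha1 scored 2.75, 2.74 and 2.26. Replicate 3 was the lowest of the replicates at all 8, as it was at 191 of the 257 broad peaks, so this is not particular to these genes.

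**Figure D5:**
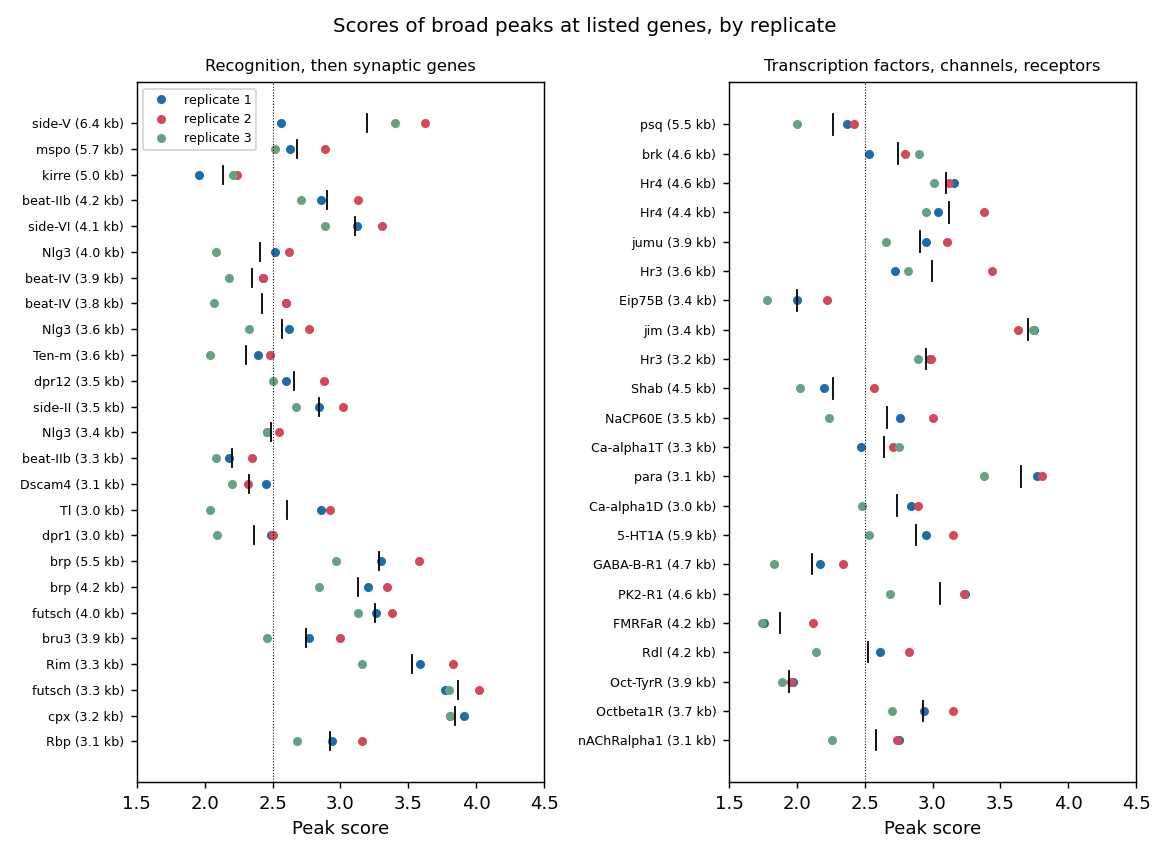
Scores of each broad peak at listed recognition and synaptic genes (left) and at transcription factor, channel and receptor genes (right), with peak length in brackets. The x axis is the peak score. Points are replicates 1, 2 and 3, the black bar is their mean, and the dotted line marks 2.5. The synaptic genes at the foot of the left panel include the highest means, 3.86 for futsch and 3.84 for cpx.

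Signalling genes had 9 of 109 (8.26%), with 10 peaks and a median over peaks of the mean score of 2.3. Enzymes of cyclic nucleotide signalling carried 4 of them, with 2.89, 2.72 and 2.7 in Pde8, 2.0, 2.19 and 1.66 and 2.49, 2.72 and 2.56 in Pde1c, and 2.29, 2.51 and 2.28 in rut, which encodes an adenylyl cyclase. The peak at spi, for a ligand of the EGF receptor, was 4517 bp long and kept its borders in each replicate, with 2.24, 2.36 and 2.13. Stat92E, for the transcription factor of the JAK/STAT pathway, scored 2.83, 2.98 and 3.02. Axon guidance genes had 4 of 31 (12.9%), namely NetB (2.97, 3.43 and 2.7), a netrin gene, unc-5 (2.95, 3.19 and 2.56), Drl-2 (2.2, 2.37 and 2.03) and sli (1.91, 2.17 and 2.04), which encodes the Robo ligand Slit. Cytoskeleton and chromatin regulators had 2 of 58 (3.45%), Abl, a tyrosine kinase gene (3.09, 3.28 and 3.15), and jim. All 8 shares lay below the 14.3% of coding genes of 20 kb or more and above the 1.84% of all coding genes. Most of the lists have a median gene length under 20 kb, so the 14.3% is not matched to them in length. Among genes with a shared replicate 1 peak, the share with a broad peak ran from 9.52% for cytoskeleton and chromatin regulators to 28.6% for synaptic vesicle and active zone genes. It was 24.7% for coding genes of 20 kb or more and 12.7% for all coding genes.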

How the data were processed

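Bsh:Dam binding was measured in L4 neurons of 1 group, in 3 biological replicates. The authors checked reads with FastQC 0.11.9, ran the damidseq pipeline, which gives Bsh:Dam over Dam as a log2 value, and then used find_peaks on each replicate at an FDR below 0.01 and assigned genes within 1 kb with peaks2genes. The genome build is not given in the sources used here. The deposited peak lists give a start, an end, a score and an FDR per peak, and the deposited gene lists pair gene symbols with a score. How a score follows from the log2 values is not given there, so a score ranks peaks and carries no interval.

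Overlap (1 bp or more), border classes and gene distances were computed in Python 3.11.15 with numpy 2.4.6, rank correlations with scipy 1.17.1 and figures with matplotlib 3.10.9. The overlap code was tested on simulated peaks. In replicates 2 and 3 a member took the highest score among its overlapping peaks. Gene spans came from the RefSeq table of Release 6, and no position from it is printed. Members and gene lists were chosen with earlier results of these data known. Genes were named by a rule on length, score, splits, identical borders, threshold neighbours and the lists. The peaks least covered or most widened, the peaks with no gene and the genes with several broad peaks were named after their values were seen. No test was made, since the samples form 1 group.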

Additional observations from a re-analysis of the deposited data

How the results depend on the processing

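With a minimum of 2500 bp or 4000 bp the rule found 453 or 89 peaks in place of 257, and with a score also above 2.5 it found 154. Asking for a peak in only one other replicate gave 264 to 297. Without a score limit, with 50% coverage, with no overlap asked, with an FDR below 0.001, or from replicate 2 or 3 as base it found 266, 220, 312, 192, 252 and 242. The 4 split peaks became 1 when pieces under 500 bp apart were joined, 1 when replicate 3 was the base, and 1 to 3 when replicate 2 or 3 was left out. Mean coverage of 86.5% fell to 48.6% with peaks above 2.5 only and was 65.7% with an FDR below 0.001, and 84.7% to 88.3% with one of the other replicates left out. The mean score of 2.66 was 2.57 to 2.74 with a replicate left out. Genes numbered 265 under the peaks and 299 in the authors' list at the same score, against 306. The 156 peaks that were broad in each replicate became 179 to 197 without replicate 2 or 3. The last comparison and the replicate 2 and 3 bases for splits were chosen after seeing the data. The cause of these differences was not tested. Depth could not be assessed from peak lists, and binding below the caller's limits is not listed. No paired analysis was possible because all samples form 1 group.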
